A study of Mus musculus with 12 samples.

Results

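Granulocyte-macrophage progenitors and early granulocytes were followed through c-Kit+ mouse bone marrow in which Ezh2 was deleted, NRas G12D was switched on, or both. A cell was taken as a member when Mpo, Elane, Prtn3 and Ctsg together held at least 100 of every 10000 UMIs (molecules counted by their barcode), when S100a8, S100a9, Camp and Ngp together held fewer than 300, and when fewer than 2 of F13a1, Ms4a6c and Ccr2 were detected. By this rule 2986 of 32701 cells (9.13%) were members. The members were thus chosen by the measured values of these 11 genes, so their levels are given below as a description and not as a result. In what follows the members are called granulocyte-macrophage progenitors for short. The name covers early granulocytes as well, which the rule does not separate from progenitors.

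The cells came from wild-type mice (WT, Mx1-Cre negative), from Mx1-Cre+;Ezh2 f/f mice (E2-KO), from Mx1-Cre+;NRas G12D+/- mice (G12D) and from mice with both changes, Mx1-Cre+;NRas G12D+/-;Ezh2 f/f (G12D/E2-KO). Mx1-Cre is a recombinase driven by an interferon-inducible promoter that acts in blood cells but also outside them, and pIpC, an interferon inducer, was given to all 4 groups. All mutants carried Mx1-Cre and WT did not, so a difference shared by all mutants cannot be told apart from one due to the transgene. Mice were injected at 8 to 12 weeks of age per the labels, while the study's text gives another age for it, and T1 marrow was taken 2 weeks after pIpC, T2 marrow after 2 months and T3 marrow after 4 months. Each genotype and time point had 1 library. The time points therefore serve as the 3 replicates of a genotype, and how many mice stand behind a library is not given in the sources used here. Values listed for a genotype are always in the order T1, T2, T3. A mean is followed by its SD over n = 3 libraries.

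In the G12D T1 table, 2896 of 5648 cells (51.3%) were near copies of cells in the G12D/E2-KO T1 table and were left out of G12D T1. The tables name no cell barcodes (0 in the files), so shared barcodes could not be counted. The libraries gave 139, 228 and 152 progenitors in WT, 236, 344 and 153 in E2-KO, 322, 242 and 278 in G12D and 189, 361 and 342 in G12D/E2-KO. Their summed UMIs ran from 834604 to 2828727 per library, and the median progenitor held 5005 UMIs in E2-KO T3 and 10885 in WT T2. Sex-linked genes set the T3 libraries of WT, E2-KO and G12D apart from the other 9 libraries. G12D/E2-KO T3 was thus compared at its own time point with libraries that differ from it in these genes as well.

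Granulocyte-macrophage progenitors are the branch point from which neutrophils and monocytes arise. While they commit to the neutrophil path they fill primary (azurophil) granules with myeloperoxidase and the serine proteases elastase, proteinase 3 and cathepsin G, and only later, after Cebpe is induced, with the proteins of secondary and tertiary granules. Ezh2 is the catalytic subunit of Polycomb repressive complex 2 (PRC2), which methylates histone H3 on lysine 27 and holds developmental genes silent, while NRas G12D keeps the Ras to ERK growth signal switched on.

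In WT, the genotype shown here for Ms4a3, Cd34 and Cebpe, the label fitted these markers. More progenitors of E2-KO T3 and G12D/E2-KO T3 lay close to the lower limit of the rule, as given below. Ms4a3, a marker of this stage that the rule did not use, had 1724 ± 467 CPM (summed UMIs scaled to the same total in each library) in WT progenitors. Cells past the upper limit on late granule genes, called late granulocyte side cells below (11007 cells), had 478 ± 156 CPM of it in WT. Monocyte side cells, with at least 2 of the 3 monocyte genes, had 704 ± 206 CPM. Cd34, carried by early progenitors, was at 57.6 ± 12.8 CPM in WT progenitors and at 6.52 ± 3.22 CPM in WT late granulocyte side cells. Cebpe ran the other way, with 263 ± 29.3 and 960.3 ± 102 CPM. Markers of other cell types were present, and some moved with genotype. The 10 erythroid markers, globins included, summed to 2358 to 3372 CPM in WT progenitors, to 1483 to 3591 in those of E2-KO, to 725 to 1303 in those of G12D and to 729 to 1450.2 in those of the double mutant. Every library with NRas G12D thus lay below every library without it. The B lymphoid markers summed to 36.0 to 129 CPM in WT, 111 to 155 with Ezh2 alone deleted, 48.6 to 74.9 with NRas G12D alone and 32.7 to 50.8 with both. T and NK markers summed to 0.719 to 7.19 CPM over the libraries. Basophil and mast cell markers were highest at T1 in every genotype, with sums of 911 CPM (WT), 296 (E2-KO), 124 (G12D) and 223 (both changes), against 40.3 to 90.7 CPM at T2 and T3. WT T1 stood apart. Its Mcpt8 was at 488 CPM and its Prss34 at 341 CPM. The part of these other markers in the results below was not tested. Progenitors with at least 4 of 47 such genes made up 27.3, 35.5 and 13.8% of those in WT and 30.9, 19.8 and 10.5% in E2-KO. In G12D they made up 10.9, 17.8 and 6.83%, and in G12D/E2-KO 16.9, 4.99 and 9.06%. Leaving them out thus removed unequal parts of the libraries. Without them, the counts of genes that passed against WT (given below for all progenitors) were 56 for E2-KO, 12 for G12D and 129 for the double mutant.

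Some late granule genes were found in erythroid cells of the same libraries as well. Erythroid cells (globin at 500 or more of every 10000 UMIs) should lack neutrophil granule proteins, yet they carried UMIs of Ngp, Camp and Lcn2. Ngp, the neutrophilic granule protein, was at 688, 541 and 778 CPM in WT progenitors and at 999.7, 623 and 1161 CPM in WT erythroid cells. In E2-KO it was at 254, 205 and 256 CPM in progenitors and at 267, 198 and 268 CPM in erythroid cells. The E2-KO values were the lowest in both cell classes, and in both the E2-KO and the WT libraries did not overlap (as for 17.2% of all genes tested in the progenitors). Ngp is a rule gene, and so is Camp, which had 1177, 896 and 1466 CPM in WT and 748, 695 and 671 CPM in E2-KO progenitors, so both are given as values alone. Lcn2, the gene of lipocalin 2, was lower in E2-KO than in WT progenitors (log2 -0.90 ± 0.21, adjusted p = 0.041). That call was lost without any 1 of 8 single libraries, at most with an adjusted p of 0.26 (without E2-KO T1), without progenitors that had markers of other cells (0.11) and with a lower limit of 200 (0.33). Lcn2 was at 61.4, 62.9 and 55.1 CPM in E2-KO progenitors and at 34.1, 25.8 and 48.2 CPM in the erythroid cells of those libraries. In WT the same pair was 130.0, 104 and 121 CPM and 160.3, 94.9 and 211 CPM. In 11 of 12 libraries Ngp was lower in the progenitors than in the erythroid cells. Lcn2 was above the erythroid level in all 3 E2-KO libraries and in WT T2 but not in WT T1 or T3, and the part of free RNA in these levels was not tested. For Fcnb and Cd34, erythroid cells held Fcnb at 5.89 to 31.5 CPM and Cd34 at 0.736 to 18.1 CPM over the 12 libraries, against 66.2 to 204 and 42.7 to 75.2 CPM in the progenitors.

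**Figure D1:**
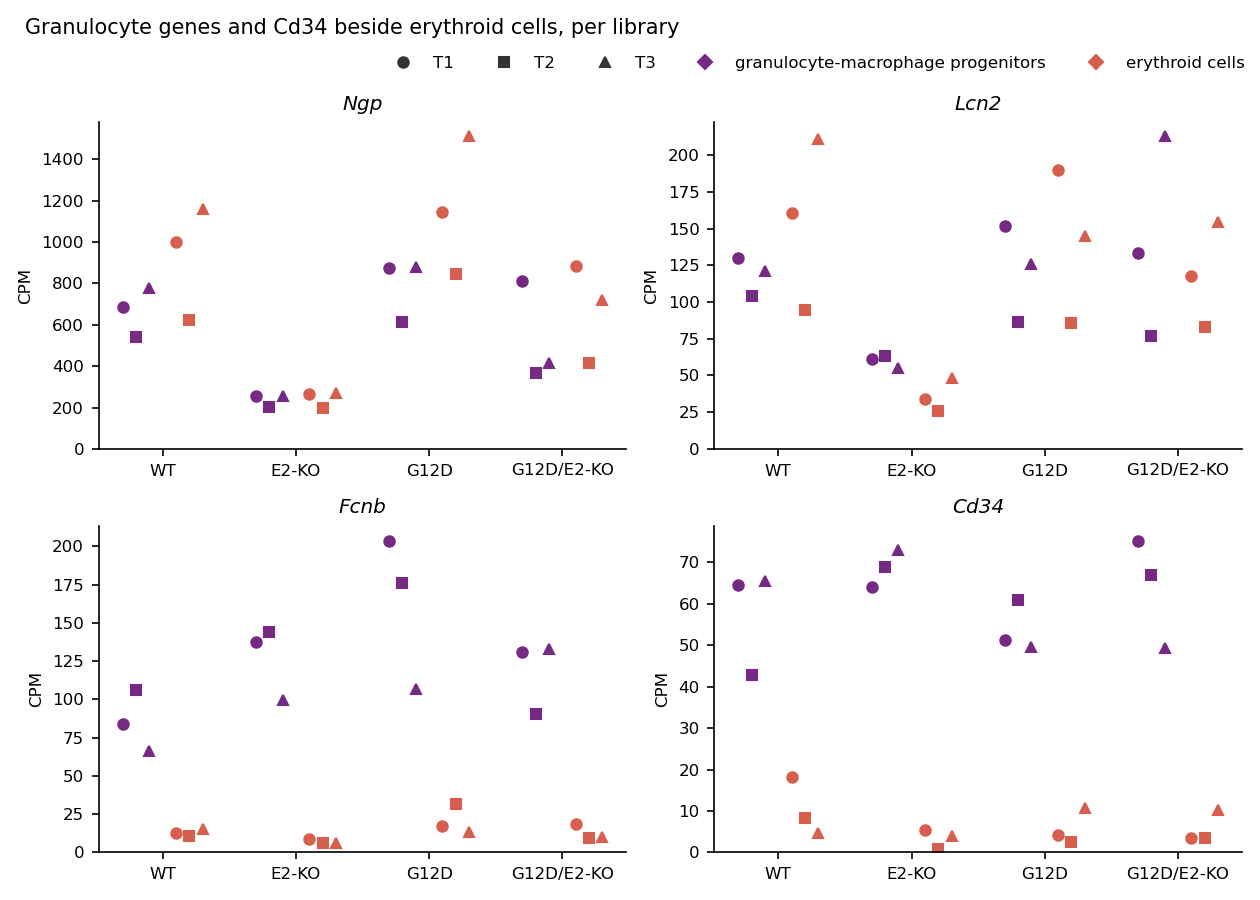
Level in CPM (vertical axes, from 0) of Ngp, Lcn2, Fcnb and Cd34 in granulocyte-macrophage progenitors and in erythroid cells of the same library, by genotype; each point is 1 library and its shape gives the time point. Ngp is lower in the progenitors in 11 of 12 libraries, with the E2-KO libraries lowest in both cell classes, Lcn2 in E2-KO is higher in the progenitors, and Fcnb and Cd34 lie far higher in the progenitors in all 12 libraries.

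Within the progenitors, genes of earlier and later stages differed with the sum of the 4 late granule genes. Progenitors at 100 to 300 of every 10000 UMIs made up 18.0, 27.6 and 23.7% of the WT progenitors and 22.7 to 32.7% of those in the mutants. Between the lower group (0 to 100) and this upper group, Fcnb, the lectin ficolin B of neutrophil granules, went from 30.8 ± 11.2 to 327 ± 60.4 CPM in WT. Cebpe, the transcription factor of granulocyte maturation, went from 218 ± 6.76 to 458 ± 128 CPM. Every library was higher in the upper group for both genes. Cd34 fell along the same axis from 67.8 ± 11.8 to 12.9 ± 11.2 CPM in WT, and was lower in the upper group in every library. Sox4, a transcription factor of immature progenitors, had 49.5 ± 12.5 and 12.9 ± 8.39 CPM, and Irf8, which directs cells to the monocyte path, 75.1 ± 54.4 and 14.9 ± 17.0 CPM. Since the cells were split by genes of the rule, these values are a description. In erythroid cells the same sum had medians of 76.2, 54.6 and 89.6 of every 10000 UMIs in WT and of 24.0, 16.9 and 32.9 in E2-KO. Over the 12 libraries these medians ran from 16.9 to 89.6. The split may thus fall at different stages in different genotypes, and the part of free RNA in it was not tested. In the upper group Fcnb was at 554 ± 80.7 CPM in G12D, at 345 ± 116 CPM where Ezh2 alone was deleted and at 295 ± 33.7 CPM with both changes, and the 3 G12D libraries lay above the other 9.

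**Figure D2:**
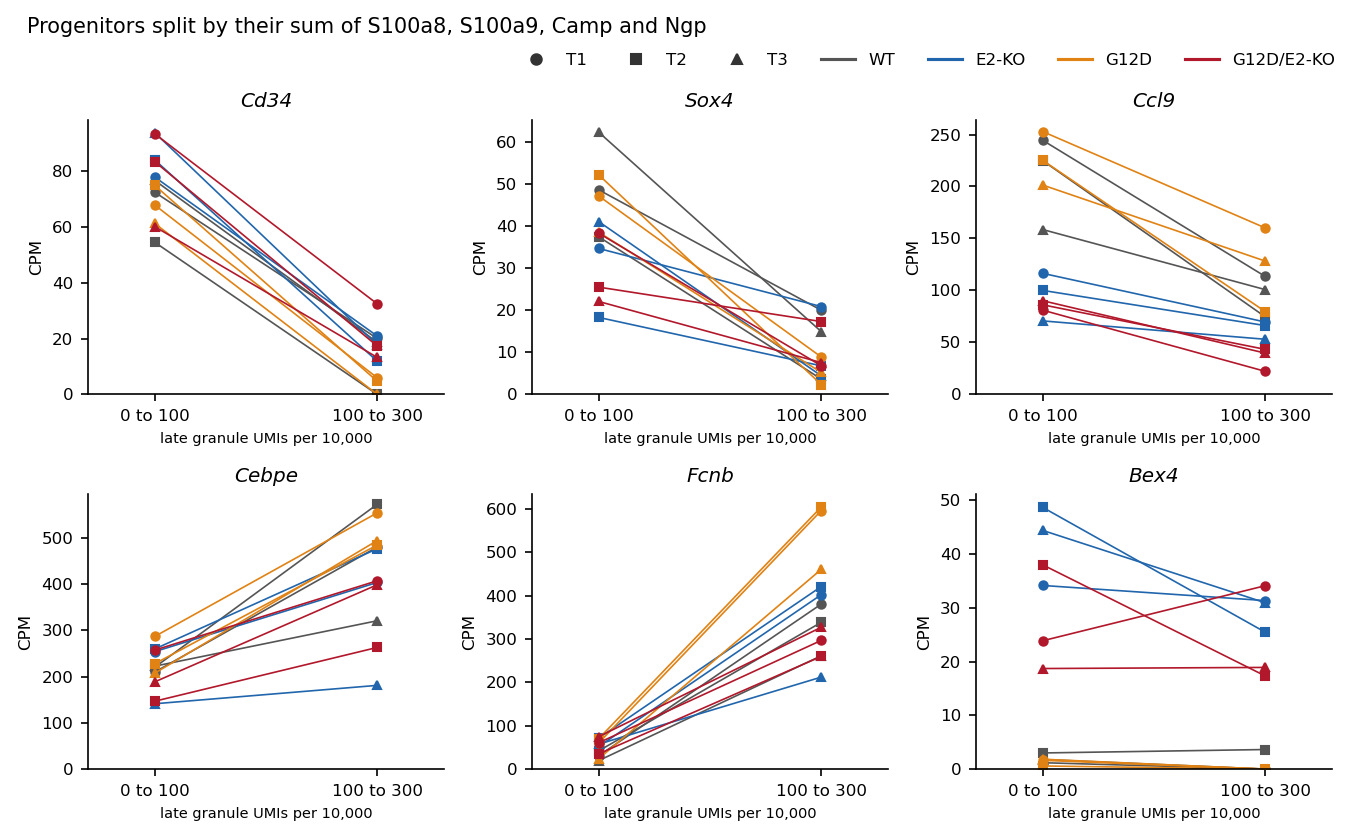
Level in CPM (vertical axes, from 0) in progenitors split by their sum of S100a8, S100a9, Camp and Ngp into 0 to 100 and 100 to 300 of every 10000 UMIs (horizontal axes); each line joins the 2 groups of 1 library, colour gives the genotype and shape the time point. Cd34 and Sox4 are lower and Cebpe and Fcnb higher in the upper group in all 12 libraries, Ccl9 is lower in the libraries with Ezh2 deleted within each group, and Bex4 is high only in those 6 libraries in both groups.

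Progenitors made up 6.76 ± 1.11% of all WT cells, 9.08 ± 2.93% of E2-KO cells, 10.9 ± 0.834% of G12D cells and 9.62 ± 3.43% of G12D/E2-KO cells. By library it was 5.91, 8.02 and 6.36% in WT, 9.65, 11.7 and 5.92% in E2-KO, 11.7, 10.0 and 10.9% in G12D and 6.21, 9.58 and 13.1% in G12D/E2-KO. All G12D libraries lay above all WT libraries, and G12D/E2-KO lay above WT at each time point. E2-KO lay above WT at T1 and T2 and below it at T3. Over the 6 pairs of libraries at the same time point, NRas G12D moved the share by 2.32 points, with 4 of 6 pairs higher (exact two-sided sign-flip p = 0.25, adjusted p = 0.5 over 6 such tests). Deletion of Ezh2 moved it by 0.531 points, with 3 of 6 pairs higher (exact p = 0.8125). With 6 pairs the smallest possible p is 0.03125. Genes of the rule differed between genotypes, so these shares depend on where the limits lie, and 708 progenitors sat just inside the lower limit (100 to 150) with 702 cells just outside it (50 to 100). On the late side 272 progenitors lay at 200 to 300 and 218 cells at 300 to 400, and 1376 progenitors had 1 of the 3 monocyte genes while 2148 cells were left out by these genes alone. Progenitors with 1 monocyte gene made up 69.0% of those in G12D/E2-KO T3, the library with the highest progenitor share, and 36.2 to 58.5% in the other libraries. The cells near the lower limit were uneven, since 45.1% of progenitors in E2-KO T3 and 49.7% in G12D/E2-KO T3 lay at 100 to 150, against 10.96 to 30.7% in the other libraries.

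The order of the genotypes by their share of progenitors with a Cd34 UMI depended on the settings. After each cell was thinned to 2000 UMIs, on average 7.15% of WT, 10.8% of E2-KO, 9.81% of G12D and 11.3% of G12D/E2-KO progenitors had a Cd34 UMI, against 0 to 3.65% of erythroid cells. By library the range was 5.70 to 8.55% for WT, 10.0 to 12.2% for E2-KO, 8.39 to 11.98% for G12D and 8.61 to 14.3% for G12D/E2-KO, so that all 6 libraries with Ezh2 deleted lay above the 3 WT libraries and overlapped G12D. With a lower limit of 200 WT had the highest mean Cd34 share (5.55%, against 5.35, 5.20 and 4.53% in the same order), and likewise without thinning (32.7%, against 31.5, 26.6 and 30.4%). For Fcnb the means after thinning to 2000 UMIs were, in the same order, 13.9, 18.3, 22.8 and 20.1%, against 1.47 to 5.77% of erythroid cells. Without thinning they were 34.8, 42.5, 40.7 and 41.8%, and with an upper limit of 100 they were 4.46, 12.3, 9.87 and 10.9%. E2-KO was thus highest in both of these settings. With 2000 UMIs and the limits of the rule, the largest difference was the higher Fcnb share with NRas G12D (5.39 points, 5 of 6 pairs higher, exact p = 0.125, adjusted p = 0.46875). Deletion of Ezh2 moved the Cd34 share by 2.56 points (4 of 6 pairs higher, exact p = 0.15625, adjusted p = 0.46875). Among the 4 tests of these shares, 0 had a p under 0.05.

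The primary granule genes that define the cells varied with time point and genotype. Elane was at 10740.3, 11204 and 11605 CPM in WT, 10732, 10685 and 4643 in E2-KO, 13794, 13252 and 8861 in G12D and 7687, 6835 and 6226 in G12D/E2-KO. E2-KO T3 and the G12D/E2-KO libraries were the lowest. Mpo was at 3614, 4452 and 3951 CPM in WT, 4354, 3943 and 4161 in E2-KO, 3931, 4143 and 3654 in G12D and 3957, 3832 and 2901 in G12D/E2-KO, with the 4 genotypes overlapping. Ctsg was at 2600.2, 3611 and 2876 CPM in WT, 3404, 3219 and 1494 in E2-KO, 2861, 3768 and 2287 in G12D and 2429, 1912 and 1645 in G12D/E2-KO. These rule genes are given as values alone. Beside them, 10 other primary granule genes, none of them used by the rule, gave 0 calls in each of the 6 comparisons, with medians from -0.26 (interaction) to 0.14 (G12D against WT) on the log2 scale. Other settings did give calls, 11 of them in G12D/E2-KO against G12D (at most 1 higher and 2 lower genes). In G12D/E2-KO against WT 2 settings did so (at most 1 lower gene).

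Ezh2 UMIs followed the labels in these cells. Ezh2 (chr6:47530139-47595341 of mm10) was at 74.6, 72.1 and 81.3 CPM in WT, 15.7, 13.8 and 22.8 in E2-KO, 58.0, 74.4 and 63.5 in G12D and 12.7, 23.9 and 14.4 in G12D/E2-KO. The 6 libraries with the deleted allele lay below the 6 without it. The log2 difference from WT was -2.19 ± 0.22, adjusted p = 6e-07 in E2-KO and -2.15 ± 0.21, adjusted p = 3.8e-07 in G12D/E2-KO (edgeR quasi-likelihood test, Benjamini-Hochberg adjusted, as for all adjusted p below). Which exons the deletion removes relative to the counted 3′ ends is not given in the sources used here. Nras was at 79.6, 60.0 and 49.6 CPM in WT, 52.1, 62.2 and 49.1 in E2-KO, 73.9, 60.5 and 58.5 in G12D and 75.2, 57.7 and 67.6 in G12D/E2-KO. The groups overlapped, and counts of 3′ ends cannot tell the G12D allele from the normal one.

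With all 12 libraries in the fit, most genes that passed did so where Ezh2 was deleted. Of 9292 genes tested in the summed UMIs, 85 passed in E2-KO against WT (0.915%), 69 higher (0.743%) and 16 lower (0.172%). Among the 16 are the rule genes Camp and Ngp, whose calls are not read as results. Without 1 library the count was 40 (WT T3), 46 (WT T2), 50 (E2-KO T1) and 58 to 117 without any other, the highest without G12D/E2-KO T3. In G12D/E2-KO against G12D, where Ezh2 was deleted with NRas G12D present, 196 passed (2.11%), 114 higher (1.23%) and 82 lower (0.882%). The 82 include the rule genes Elane and S100a9, which are likewise not read as results. The count of 196 fell to 64 without G12D T2, 73 without G12D T3, 85 without G12D T1 and 100 without G12D/E2-KO T2. It fell to 40 with the copied cells left in G12D T1, which is partly built in since they match G12D/E2-KO T1 cells. The comparisons of E2-KO against WT and of G12D/E2-KO against G12D share no library. They do come from 1 fit of all 12 libraries, with the spread and the time terms in common, so their calls are not independent. Both comparisons had 40 higher genes in common, 58.0% of the 69 and 35.1% of the 114. In common among the lower genes were 5, which is 31.3% of the 16 and 6.10% of the 82, and these were Ezh2, Ccl9, Arf5, AW112010 and PISD. The sign was the same in the second comparison for 79 of the 85 genes, and in the first for 182 of the 196. The number of calls in 1 comparison and not in the other is not a difference between them, and the interaction of both changes passed for 3 genes (0.0323%), 1 higher (0.0108%) and 2 lower (0.0215%), with 418 at an unadjusted p under 0.05 and 6 called by DESeq2. G12D against WT gave 14 calls (0.151%), 10 higher (0.108%) and 4 lower (0.043%), and 8 without WT T3, 9 without G12D T3, 22 without G12D/E2-KO T1 and 25 without G12D/E2-KO T3. When WT and 1 mutant alone were fitted, 70 genes passed in G12D and 91 in E2-KO, so the gap between both counts depended on the libraries in the fit.

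**Figure D3:**
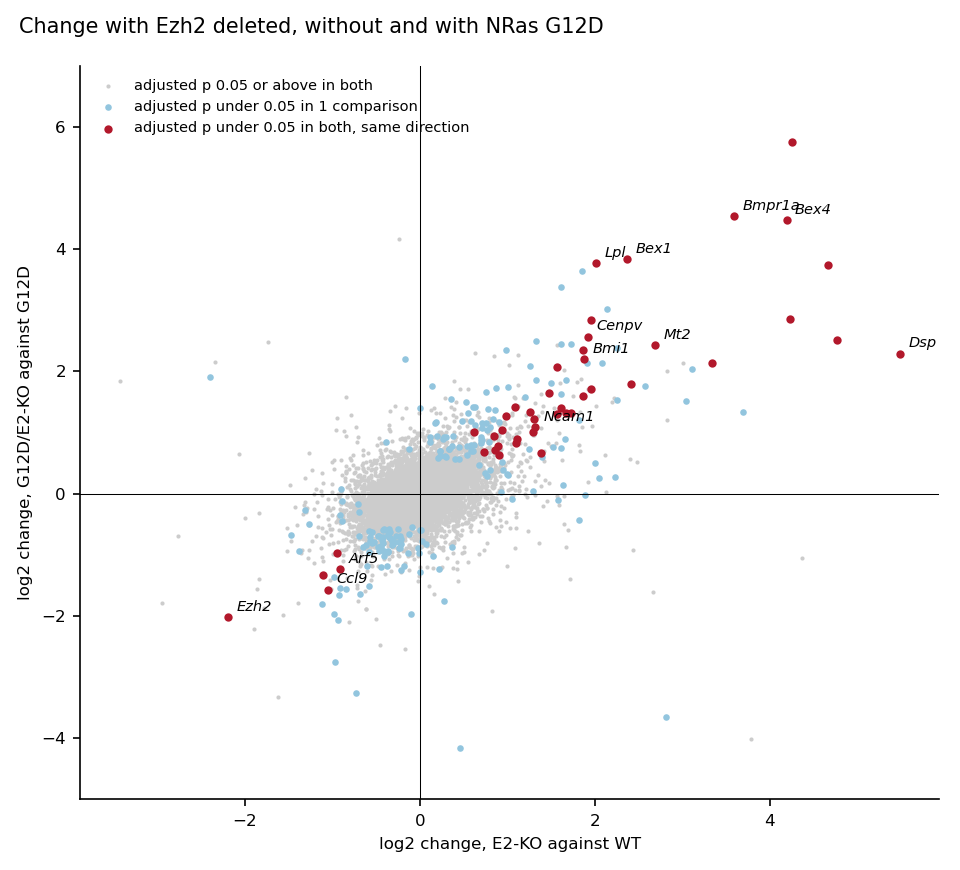
Log2 difference of each of 9292 genes in the progenitors for E2-KO against WT (horizontal axis) and G12D/E2-KO against G12D (vertical axis). Both share no library but come from the same fit, with 1 spread for all libraries. In the plot, 1 gene below -5 lies outside the axes. Red points are the 45 genes past the threshold in both in the same direction, mostly higher, and Ezh2, Ccl9 and Arf5 are among the 5 lower ones.

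Several genes that rose with Ezh2 deleted were near 0 in WT progenitors and are best known from other tissues. Dsp, the gene of desmoplakin that anchors keratin to desmosomes in epithelia (chr13:38151294-38198577), was at 0, 0.784 and 0.719 CPM in WT, 23.7, 33.2 and 28.8 in E2-KO, 2.78, 6.98 and 5.95 in G12D and 33.0, 33.3 and 14.4 in G12D/E2-KO. All 6 libraries with Ezh2 deleted lay above the other 6, and the G12D libraries lay above WT. E2-KO lay apart from WT for 17.2% of all genes tested, and G12D/E2-KO from G12D for 17.2%. The genes named here and below were chosen for their change, so such separation is partly built in. WT held 3 UMIs of Dsp in all and E2-KO 174, a ratio of 47.5 (95% counting interval 15.99 to 233; adjusted p = 1.1e-06). G12D held 34, a ratio of 8.37 to WT (2.63 to 42.6), but this difference did not pass the test (adjusted p = 0.13). Against G12D, Dsp in G12D/E2-KO differed by 2.29 ± 0.32, adjusted p = 0.00014. Such intervals cover counting error alone.

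Of the Bex genes, a small family first known from brain, Bex1, Bex2 and Bex4 of chromosome X rose in both Ezh2 comparisons. Bex6, also tested, did not pass in either (log2 -0.34, adjusted p = 0.51 and log2 -0.62, adjusted p = 0.08). Bex4 (chrX:136138996-136140443) was at 1.01, 3.14 and 1.44 CPM in WT, 33.5, 43.8 and 40.7 in E2-KO, 1.19, 0.465 and 1.49 in G12D and 26.9, 32.9 and 18.7 in G12D/E2-KO. The 2 sets of libraries did not overlap, and the rise was 18.3-fold in E2-KO (log2 4.19 ± 0.35, adjusted p = 1.7e-08) and 22.2-fold in G12D/E2-KO against G12D (log2 4.47 ± 0.38, adjusted p = 1.5e-08). Bex1 was at 3.02, 2.74 and 6.47 CPM in WT, 22.0, 21.6 and 14.4 in E2-KO, 0.794, 1.40 and 1.49 in G12D and 18.8, 24.3 and 14.0 in G12D/E2-KO, a log2 difference of 2.37 ± 0.36, adjusted p = 0.00031 in E2-KO against WT. Without WT T2 that difference no longer passed (adjusted p = 0.07). Bex2 had 1 UMI in WT and 39 in E2-KO, a ratio of 31.9 (5.41 to 1294). Reads of these close relatives may be split among them, so the members are less certain than their sum. With the cells as deposited, in which G12D T1 holds the copied cells, the Bex4 difference from WT in E2-KO did not pass (adjusted p = 0.15). That setting leaves the WT and E2-KO cells as they were, and G12D T1 enters through the fit shared by all libraries.

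Metallothioneins, which bind zinc and copper, rose as well. Mt2 (chr8:94172664-94173568) was at 12.1, 10.6 and 15.1 CPM in WT, 62.7, 60.5 and 128 in E2-KO, 6.75, 9.30 and 9.92 in G12D and 53.8, 54.2 and 37.1 in G12D/E2-KO. The libraries with Ezh2 deleted lay above all others, with a 6.45-fold difference in E2-KO (log2 2.69 ± 0.35, adjusted p = 0.0015) and a 5.36-fold difference in G12D/E2-KO against G12D (log2 2.42 ± 0.35, adjusted p = 0.0025). Mt1, its neighbour on chromosome 8, was already expressed and was at 654, 748 and 813 CPM in WT, 1272, 1092 and 1761 in E2-KO, 806, 712 and 771 in G12D and 1199.6, 1373 and 1162 in G12D/E2-KO. It differed by 0.90 ± 0.17, adjusted p = 0.0041 in E2-KO and by 0.63 ± 0.17, adjusted p = 0.044 in G12D/E2-KO against G12D. The first of these was lost without E2-KO T3 (adjusted p = 0.079). The second was lost without 1 of 7 single libraries, at most with an adjusted p of 0.31 (without G12D/E2-KO T2).

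The promoters of these genes differ in the density of CG pairs, the feature through which Polycomb complexes are known to find many of their targets. The 300 bases around each start (250 before and 50 after, from RefSeq on GRCm38.p6) are shown for Dsp, Bex4 and Bmi1. These were picked among the genes with large differences after the values were seen. The Mt2 promoter is shown for its metal-response cores. The windows lie at chr13:38151044-38151343, plus strand for Dsp, at chrX:136138746-136139045, plus strand for Bex4, at chr2:18676768-18677067, plus strand for Bmi1 and at chr8:94172368-94172667, plus strand for Mt2. Capitals mark each CG in the first 3 sequences and, in Mt2, each core TGCACNC or TGCGCNC on either strand.
Dsp: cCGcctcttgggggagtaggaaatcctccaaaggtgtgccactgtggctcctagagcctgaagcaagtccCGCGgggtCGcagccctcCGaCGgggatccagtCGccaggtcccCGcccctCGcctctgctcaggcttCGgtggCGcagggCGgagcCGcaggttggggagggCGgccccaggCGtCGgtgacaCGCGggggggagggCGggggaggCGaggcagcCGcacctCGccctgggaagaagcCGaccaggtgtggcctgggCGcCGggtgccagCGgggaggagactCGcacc
Bex4: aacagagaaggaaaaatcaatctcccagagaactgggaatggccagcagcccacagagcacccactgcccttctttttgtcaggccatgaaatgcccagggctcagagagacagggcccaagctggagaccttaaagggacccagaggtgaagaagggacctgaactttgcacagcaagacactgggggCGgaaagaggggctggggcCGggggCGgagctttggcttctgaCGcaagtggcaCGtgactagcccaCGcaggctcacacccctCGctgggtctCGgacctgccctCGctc
Bmi1: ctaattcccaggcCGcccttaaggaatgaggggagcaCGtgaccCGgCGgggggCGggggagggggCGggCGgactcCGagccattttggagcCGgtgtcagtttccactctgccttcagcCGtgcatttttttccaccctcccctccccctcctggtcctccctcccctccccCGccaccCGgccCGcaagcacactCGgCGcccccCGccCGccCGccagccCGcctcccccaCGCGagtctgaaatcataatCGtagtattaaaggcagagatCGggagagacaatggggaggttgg
Mt2: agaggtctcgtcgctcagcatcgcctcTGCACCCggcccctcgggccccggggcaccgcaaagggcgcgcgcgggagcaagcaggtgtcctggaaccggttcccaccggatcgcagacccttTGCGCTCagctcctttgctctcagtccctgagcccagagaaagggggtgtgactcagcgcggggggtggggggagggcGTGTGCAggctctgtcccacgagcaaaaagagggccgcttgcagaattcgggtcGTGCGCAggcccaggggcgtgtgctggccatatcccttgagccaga

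Dsp held 27 CG pairs in its window, a number reached by 15.5% of the 32851 promoter windows. Bmi1 held 23 (reached by 21.5%), Bex4 held 9 (reached by 45.8%) and Bmpr1a 48 (reached by 1.22%), against a median of 7 over all windows. When each gene was given its window with the most CG pairs, the median was 23 over the 7187 tested genes with a window. That median was 30.5 over 28 of the 40 genes higher in both Ezh2 comparisons, and this difference was not tested. A gene with several starts can score higher by its richest window. These 2 medians are therefore not on the scale of the median of 7 or of the counts in single windows. Mt2 held 4 metal-response cores, a number reached by 0.517% of all windows, and Mt1 held 3, a number reached by 1.97%, while 25.7% of windows held at least 1. Such matches describe the letters of a window and do not mark bound sites, and no chromatin data were used here.

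Among the PRC1 and PRC2 genes tested, Bmi1 was the 1 higher call. Bmi1, a core subunit of Polycomb repressive complex 1 (PRC1) that sustains progenitor self-renewal, was at 25.2, 21.2 and 18.7 CPM in WT, 71.6, 74.2 and 91.1 in E2-KO, 20.3, 14.0 and 20.8 in G12D and 85.8, 84.6 and 102 in G12D/E2-KO. Every library with Ezh2 deleted was at 71.6 CPM or more and every other at 25.2 CPM or less. The rise was 3.67-fold in E2-KO (log2 1.87 ± 0.19, adjusted p = 6e-07) and 4.60-fold in G12D/E2-KO against G12D (log2 2.20 ± 0.18, adjusted p = 1.1e-08). Of the 18 PRC1 genes tested Bmi1 was the 1 call in each comparison with Ezh2 deleted, and of the 10 PRC2 genes tested Ezh2 was the 1 call, with medians of 0.25 and 0.16 in E2-KO against WT on the log2 scale, where the median of all genes was -0.01. With the cells as deposited the Bmi1 difference in E2-KO did not pass. The WT and E2-KO cells are the same in that setting, and G12D T1 enters through the fit shared by all libraries.

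A receptor gene of bone morphogenetic proteins, Bmpr1a, and Id1, which such signals are known to induce, rose in the same libraries. A link between both was not tested. Bmpr1a, a type I receptor, was at 0, 0.392 and 5.03 CPM in WT, 16.1, 19.4 and 22.8 in E2-KO, 0.397, 0.465 and 1.49 in G12D and 16.8, 20.1 and 24.0 in G12D/E2-KO. The libraries with Ezh2 deleted were all at 16.1 CPM or more, and the highest of the others was WT T3 with 5.03 CPM. The log2 difference was 3.59 ± 0.46, adjusted p = 4.3e-05 in E2-KO and 4.54 ± 0.48, adjusted p = 7.7e-07 in G12D/E2-KO against G12D. Id1, an inhibitor of the E proteins that drive differentiation, was at 19.1, 11.8 and 17.3 CPM in WT, 38.5, 38.5 and 28.8 in E2-KO, 18.7, 15.8 and 20.3 in G12D and 56.4, 38.9 and 53.6 in G12D/E2-KO. Its groups did not overlap, and it was the 1 call among 17 myeloid transcription factors tested, with log2 1.26 ± 0.23, adjusted p = 0.0025 in E2-KO and 1.34 ± 0.20, adjusted p = 0.00012 in G12D/E2-KO against G12D. The E2-KO call was lost without E2-KO T2 (adjusted p = 0.055) or WT T2 (0.097).

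Other genes of this group act in lipid handling, adhesion and transcription. Lpl, lipoprotein lipase, was at 3.02, 3.14 and 2.16 CPM in WT, 14.4, 10.96 and 7.19 in E2-KO, 2.38, 1.40 and 0.496 in G12D and 16.8, 28.6 and 20.5 in G12D/E2-KO. It was higher in every library with Ezh2 deleted and highest in G12D/E2-KO, with log2 2.01 ± 0.41, adjusted p = 0.0072 in E2-KO and a 7.98-fold difference (adjusted p = 7.7e-06) in G12D/E2-KO, both against WT. The E2-KO call was lost without E2-KO T1 (adjusted p = 0.095) or WT T2 (0.16). Ncam1, a neural cell adhesion molecule, was at 28.2, 28.2 and 31.6 CPM in WT, 64.0, 69.3 and 87.5 in E2-KO, 36.5, 30.7 and 36.7 in G12D and 78.2, 72.6 and 85.9 in G12D/E2-KO, again without overlap, with log2 1.32 ± 0.18, adjusted p = 4.8e-05 in E2-KO and 1.09 ± 0.16, adjusted p = 0.00013 in G12D/E2-KO against G12D. Alcam, Cd44 and Gpc1, all of the cell surface, also passed in both comparisons, with folds of 2.16, 1.66 and 1.79 in E2-KO. Each of these 3 calls in E2-KO was lost without some single libraries, with an adjusted p of up to 0.12 for Alcam (without WT T2), 0.20 for Cd44 (without WT T2) and 0.23 for Gpc1 (without E2-KO T1). Lmo1, a LIM-only transcription cofactor, was at 42.3, 32.1 and 30.2 CPM in WT, 67.8, 74.9 and 51.5 in E2-KO, 33.4, 30.2 and 41.7 in G12D and 94.0, 64.9 and 115 in G12D/E2-KO. It differed by 0.99 ± 0.20, adjusted p = 0.0077 in E2-KO, a call lost without E2-KO T2 (adjusted p = 0.14), WT T2 (0.099) or WT T3 (0.10), and by 1.27 ± 0.18, adjusted p = 0.0001 in G12D/E2-KO against G12D. Nfia, a transcription factor of neural and blood development, had 8.06, 3.53 and 6.47 CPM in WT and 13.6, 18.4 and 20.4 CPM in E2-KO (log2 1.73 ± 0.36, adjusted p = 0.013), and this call was lost without E2-KO T2 (0.10), WT T2 (0.25) or WT T3 (0.11).

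**Figure D4:**
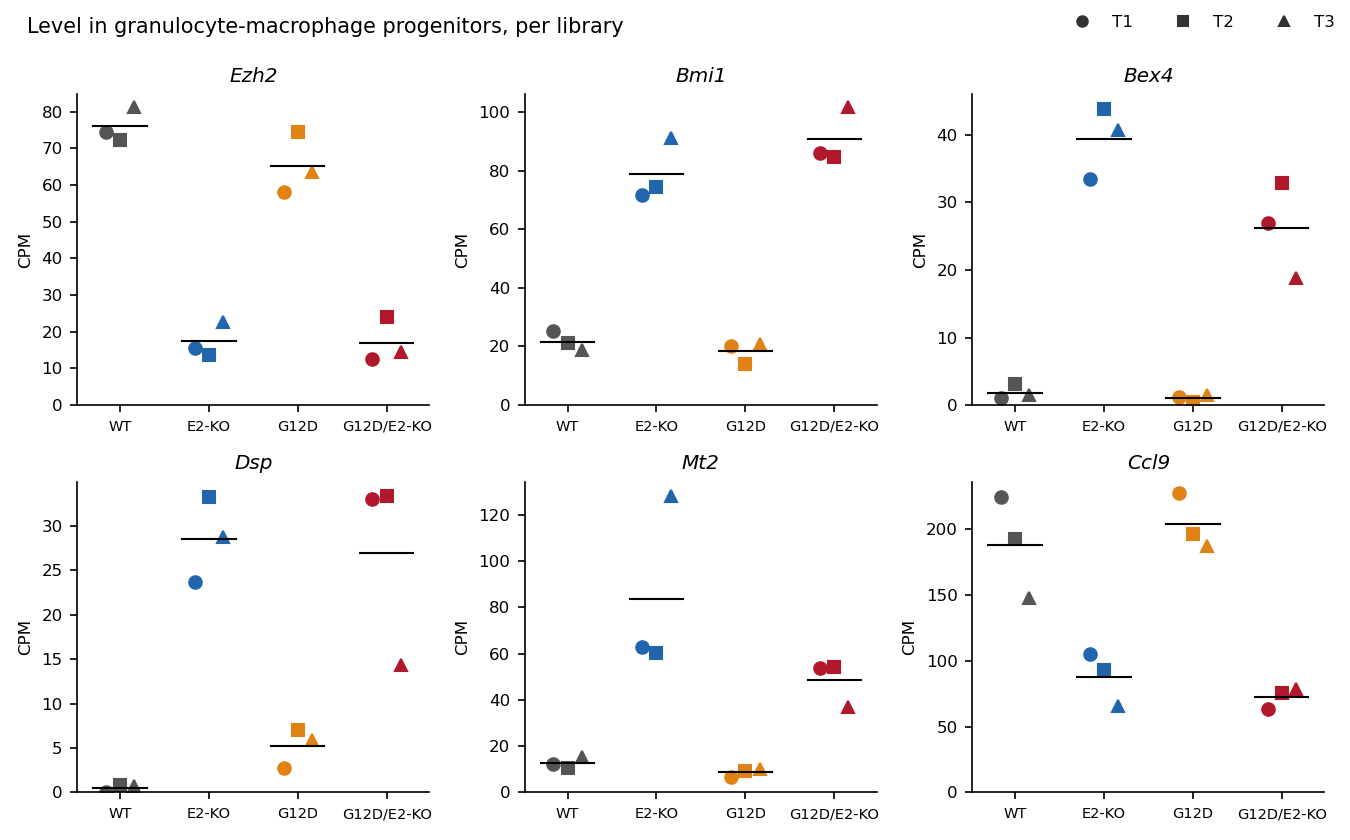
Level in CPM (vertical axes, from 0) of Ezh2, Bmi1, Bex4, Dsp, Mt2 and Ccl9 in granulocyte-macrophage progenitors by genotype; each point is 1 library, its shape gives the time point and the black line is the mean of 3. The 6 libraries of E2-KO and G12D/E2-KO lie below the other 6 for Ezh2 and Ccl9 and above them for the other 4 genes. Genes other than Ezh2 were chosen for their change, so this separation is partly built in.

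Other genes passed in both Ezh2 comparisons. Cenpv, the gene of centromere protein V, was at 5.04, 7.84 and 7.91 CPM in WT, 20.3, 30.0 and 27.6 in E2-KO, 2.38, 4.19 and 5.46 in G12D and 21.3, 25.6 and 28.8 in G12D/E2-KO. It rose 3.80-fold in E2-KO (log2 1.93 ± 0.26, adjusted p = 4.8e-05) and 5.93-fold in G12D/E2-KO against G12D (adjusted p = 3.9e-07), and passed under all 22 alternatives in both. Serpine2, which encodes the protease inhibitor nexin 1, and Ldhb, a lactate dehydrogenase subunit, rose 2.14-fold and 2.61-fold in E2-KO. Chchd7, a small mitochondrial protein, rose 1.91-fold, with 90.7, 80.8 and 63.3 CPM in WT and 143, 148 and 149 CPM in E2-KO. Yes1, a Src family kinase, had 1 UMI in WT and 37 in E2-KO, a ratio of 30.3 (5.11 to 1229; adjusted p = 0.0042, and 0.092 without WT T2).

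Fewer genes fell with Ezh2. Ccl9, a chemokine of the CC family made by myeloid progenitors, was at 225, 192 and 147 CPM in WT, 105, 93.0 and 65.9 in E2-KO, 228, 196 and 188 in G12D and 63.5, 75.6 and 78.5 in G12D/E2-KO. Every library with Ezh2 deleted lay below every other, and the fall was 2.08-fold in E2-KO (log2 -1.05 ± 0.16, adjusted p = 0.00024) and 2.97-fold in G12D/E2-KO against G12D (log2 -1.57 ± 0.15, adjusted p = 1.9e-07). Ccl9 was also lower in E2-KO than in WT on both sides of 100 in the late granule sum. It was at 95.7 ± 23.2 against 209 ± 45.0 CPM below 100 and at 63.0 ± 8.77 against 96.3 ± 19.8 CPM above it. That split may fall at different stages in E2-KO and WT, so these values are a description. The part of stage in the Ccl9 difference was not tested. Erythroid cells held Ccl9 at 0.736 to 18.8 CPM. Arf5, a small GTPase of vesicle traffic that overlaps Gcc1 on the other strand, was at 295, 331 and 287 CPM in WT, 163, 168 and 147 in E2-KO, 339.6, 299 and 253 in G12D and 126, 124 and 153 in G12D/E2-KO and fell by 1.88-fold in E2-KO (log2 -0.91 ± 0.15, adjusted p = 0.00055). AW112010, a transcript induced by interferon and inflammation, was at 80.6, 57.6 and 81.3 CPM in WT, 32.2, 37.1 and 26.4 in E2-KO, 87.4, 76.3 and 106 in G12D and 40.6, 45.7 and 27.0 in G12D/E2-KO, without overlap. Its difference in E2-KO (-1.11 ± 0.25, adjusted p = 0.041) was lost without any 1 of 6 libraries, at most with an adjusted p of 0.26 (without E2-KO T3), while the one in G12D/E2-KO against G12D was -1.33 ± 0.23, adjusted p = 0.0036.

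The other lower genes were less steady. The name PISD stands in capitals in these data, and whether it is the gene of the mitochondrial phospholipid enzyme was not checked. PISD was at 66.5, 80.8 and 102 CPM in WT, 37.7, 33.2 and 64.7 in E2-KO, 63.2, 58.6 and 98.2 in G12D and 43.7, 25.2 and 51.9 in G12D/E2-KO. Its E2-KO difference (-0.94 ± 0.18, adjusted p = 0.0043) was lost without WT T2 (adjusted p = 0.12) or E2-KO T1 (0.0503). Gps2, a subunit of a nuclear corepressor complex, had 73.5, 49.0 and 53.2 CPM in WT and 33.9, 35.0 and 18.0 CPM in E2-KO (-0.91 ± 0.19, adjusted p = 0.013), and this call was lost without E2-KO T1 (0.18) and 3 other libraries. The non-coding Gm26724 had 36.3, 10.2 and 21.6 CPM in WT and 9.32, 7.78 and 2.40 CPM in E2-KO (-1.39 ± 0.34, adjusted p = 0.049), a call lost without any 1 of 7 libraries (0.30 without E2-KO T1). In G12D/E2-KO the histone gene Hist1h2bc differed from WT by -1.17 ± 0.27, adjusted p = 0.03, which was lost without WT T3 (0.21), and Gm15658 by -1.29 ± 0.25, adjusted p = 0.0046, which was lost without WT T2 (0.065). Mrgpra2b, a receptor of the Mas-related family, had 22.6, 28.8 and 24.8 CPM in G12D and 3.56, 9.40 and 10.0 CPM in G12D/E2-KO (-1.81 ± 0.28, adjusted p = 0.00027), without overlap. Tpm3-rs7, a copy related to Tpm3 whose reads may be shared, was at 9.07, 9.41 and 10.1 CPM in WT, 89.8, 93.0 and 7.19 in E2-KO, 124, 221 and 70.4 in G12D and 8.63, 9.40 and 13.5 in G12D/E2-KO. Its difference in G12D/E2-KO against G12D (-3.66 ± 0.60, adjusted p = 0.038) was lost without any 1 of 10 libraries.

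In the double mutant, 178 genes differed from WT (1.92%), 109 higher (1.17%) and 69 lower (0.743%). The count was 64 without WT T3, 80 without WT T2 and 88 without G12D/E2-KO T2. Mgl2, a C-type lectin of myeloid cells, was at 16.1, 34.9 and 21.6 CPM in WT, 20.3, 24.4 and 27.6 in E2-KO, 21.8, 26.5 and 17.9 in G12D and 8.13, 5.98 and 3.92 in G12D/E2-KO. The 3 G12D/E2-KO libraries lay below the other 9. For 17.7% of all genes these 3 libraries lay apart from WT, for 17.2% from G12D and for 7.54% from E2-KO. The log2 difference was -2.07 ± 0.29, adjusted p = 7.1e-05 against WT, -1.98 ± 0.28, adjusted p = 9.9e-05 against G12D and -1.97 ± 0.29, adjusted p = 0.0022 against E2-KO, while in E2-KO against WT it was -0.10 ± 0.24, adjusted p = 0.92. The interaction term for Mgl2 did not pass (-1.87 ± 0.38, adjusted p = 0.072). Cd27, a receptor of the tumour necrosis factor family found on early progenitors, was at 46.3, 27.8 and 35.2 CPM in WT, 22.9, 18.7 and 12.0 in E2-KO, 36.5, 44.6 and 35.7 in G12D and 17.3, 14.1 and 8.28 in G12D/E2-KO. G12D/E2-KO lay below WT and G12D without overlap, by -1.44 ± 0.25, adjusted p = 0.001 against WT and -1.66 ± 0.23, adjusted p = 8e-05 against G12D, and the E2-KO difference was -0.92 ± 0.24, adjusted p = 0.065. Against E2-KO, 2 genes passed, both lower (0.0215%), Mgl2 and Vpreb1, and 13 without G12D/E2-KO T3. Vpreb1, part of the pre-B cell receptor, had 36.9, 28.3 and 19.2 CPM in E2-KO and 3.56, 8.97 and 3.49 CPM in G12D/E2-KO (log2 -2.33 ± 0.34, adjusted p = 0.0039). That call was lost when progenitors with markers of other cells were left out (adjusted p = 0.41), though Vpreb1 is itself among these markers, so that this loss is partly built in, and also without E2-KO T1 (0.074) or G12D/E2-KO T1 (0.067).

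Few genes passed in G12D against WT, and they were not shared with the other comparison of NRas G12D. Of the 10 higher and 4 lower genes, 0 passed in the same direction in G12D/E2-KO against E2-KO, where 2 genes passed in all. The sign there was the same for 9 of the 14. Cap1, which binds actin and helps recycle its filaments, was at 20.1, 14.9 and 12.2 CPM in WT, 14.4, 18.4 and 10.8 in E2-KO, 46.9, 47.4 and 36.7 in G12D and 14.7, 22.6 and 19.2 in G12D/E2-KO. The G12D libraries lay above the other 9 (apart from WT, as 11.2% of all genes), with a 3.07-fold difference from WT (log2 1.62 ± 0.22, adjusted p = 0.00016), and G12D/E2-KO differed from G12D by -1.29 ± 0.20, adjusted p = 0.00019. Tceanc2, which carries a domain of transcription elongation factors, was at 22.2, 18.0 and 18.7 CPM in WT, 19.1, 14.5 and 19.2 in E2-KO, 4.37, 2.33 and 6.45 in G12D and 23.4, 20.9 and 20.1 in G12D/E2-KO, with the 3 G12D libraries below the other 9 (log2 -2.09 ± 0.30, adjusted p = 0.00043 against WT). Fcnb was at 83.6, 106 and 66.2 CPM in WT, 137, 144 and 99.4 in E2-KO, 204, 176 and 107 in G12D and 131, 90.6 and 133 in G12D/E2-KO. Each G12D library lay above the WT library of its time point, by 1.96-fold on the fitted scale (log2 0.97 ± 0.18, adjusted p = 0.01). That call was lost without G12D T1 (adjusted p = 0.19), G12D T2 (0.12), WT T1 (0.18) or WT T3 (0.15), and also when progenitors above 100 of the late granule sum were left out (0.95). Fcnb was the 1 call among 13 secondary and tertiary granule genes tested, whose median was 0.34 on the log2 scale in G12D against WT.

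Tuba4a, an alpha tubulin, and Stk16, a kinase, overlap on opposite strands, so their UMIs may be partly shared. Tuba4a was at 556, 731 and 569.6 CPM in WT, 498, 490.0 and 302 in E2-KO, 268, 482 and 259 in G12D and 309, 363 and 372 in G12D/E2-KO, and Stk16 was at 206, 212 and 182 CPM in WT, 157, 164 and 103 in E2-KO, 102, 149 and 81.4 in G12D and 92.9, 90.1 and 102 in G12D/E2-KO. Both were lower in G12D than in WT (log2 -0.84 ± 0.16, adjusted p = 0.015 and -0.80 ± 0.16, adjusted p = 0.015). All 9 mutant libraries lay below the 3 WT libraries for both genes, so the part of Mx1-Cre in this difference cannot be told apart. Both calls were lost without G12D T3 (adjusted p = 0.39 and 0.45), and also without G12D T1 (0.33 and 0.26). 1500011B03Rik, a gene of unclear role, had 16.1, 21.6 and 20.1 CPM in WT and 51.2, 30.7 and 51.6 CPM in G12D (1.19 ± 0.24, adjusted p = 0.02), and lost its call without G12D T1 (0.32), WT T3 (0.29) and 2 other libraries. Gm8730, a ribosomal protein pseudogene copy, was at 1350.0, 1137 and 1528 CPM in WT and 3748, 1696 and 3688 CPM in G12D. Its difference (1.20 ± 0.17, adjusted p = 0.00053) is uncertain because such copies share reads with their parent gene.

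A further group of genes separated WT from all mutants. Pttg1, the securin that holds sister chromatids together until anaphase, was at 40.3, 48.2 and 34.5 CPM in WT, 198, 174 and 91.1 in E2-KO, 150.1, 104 and 125 in G12D and 169, 127 and 109 in G12D/E2-KO. The 9 mutant libraries lay above the 3 WT libraries, with 3.70-fold, 3.21-fold and 3.16-fold differences from WT in E2-KO, G12D and G12D/E2-KO (adjusted p = 1.1e-06, 2.7e-05 and 7.7e-06). Gdpd3, a phosphodiesterase of lysophospholipids that overlaps Gm9967, was at 11.1, 13.7 and 15.8 CPM in WT, 52.1, 34.6 and 74.3 in E2-KO, 81.0, 51.2 and 82.3 in G12D and 81.3, 41.0 and 48.4 in G12D/E2-KO. Wdfy1, an endosomal adaptor, was at 12.1, 8.62 and 18.0 CPM in WT, 39.4, 42.1 and 24.0 in E2-KO, 41.3, 29.3 and 44.1 in G12D and 41.1, 37.6 and 56.7 in G12D/E2-KO. In both, WT lay below every mutant library. The Wdfy1 calls in E2-KO and G12D were lost without WT T2 (adjusted p = 0.053 and 0.06). Mx1-Cre was present in the 9 mutant libraries and absent from WT, so its part cannot be told apart. The interaction term was -1.91 ± 0.26, adjusted p = 0.00099 for Pttg1 and -2.24 ± 0.34, adjusted p = 0.0037 for Gdpd3. A part of Mx1-Cre shared by all mutants enters this term with the opposite sign. The term therefore cannot tell such a part from an interaction of the mutations. Without the replicate block the interaction values did not pass (adjusted p = 0.14 and 0.41), and the one for Gdpd3 was also lost without WT T3 (0.12).

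Counts in gene groups of the neutrophil path are given beside the share of all genes that passed, which was 0.915% (E2-KO), 0.151% (G12D) and 1.92% (G12D/E2-KO) against WT, and 2.11% for G12D/E2-KO against G12D. The lists were chosen with earlier results of these data known, and with so few members called nothing is read from their shares. Of 15 cytokine receptor genes tested, 0 passed in E2-KO or G12D, and Csf2rb, the shared chain of the receptors for IL-3 and GM-CSF, passed in G12D/E2-KO against WT (0.86 ± 0.23, adjusted p = 0.042). Of 6 NADPH oxidase genes, Cybb, the catalytic subunit, passed in the same comparison (0.81 ± 0.19, adjusted p = 0.023), a call lost without WT T3 (adjusted p = 0.30), WT T2 (0.065) or G12D/E2-KO T2 (0.13). Anxa1, a regulator of inflammation stored in neutrophil granules, was at 169, 210.1 and 152 CPM in WT, 118, 114 and 122 in E2-KO, 239.9, 203 and 189 in G12D and 158, 144 and 136 in G12D/E2-KO, and fell in G12D/E2-KO against G12D (-0.62 ± 0.15, adjusted p = 0.02). In that comparison it was 1 of 2 lower genes among the 13 secondary and tertiary granule genes tested, whose median was -0.48 on the log2 scale (all genes -0.01). The other was Padi4, which citrullinates histones in neutrophils, with 6.75, 1.86 and 6.45 CPM in G12D and 0, 1.28 and 0.872 CPM in G12D/E2-KO (-2.76 ± 0.67, adjusted p = 0.026), a call lost without G12D T1 (0.23), G12D T3 (0.11), G12D/E2-KO T1 (0.11) or G12D/E2-KO T3 (0.13). The sum over the whole list ran the other way in 1 library, since G12D/E2-KO T3 had the highest of all 12 (3250.5 CPM, against 1663 to 2642). Chil3, a chitinase-like protein gene, was at 968 CPM in that library and at 60.8 to 116 CPM in the other 11. Among 16 adhesion and surface genes, Cd48 fell in G12D/E2-KO against WT (-0.70 ± 0.17, adjusted p = 0.028), and Fcgr3, Cd63 and Cd48 were lower in G12D/E2-KO than in G12D (-0.79 ± 0.20, adjusted p = 0.042, -0.60 ± 0.16, adjusted p = 0.042 and -0.63 ± 0.17, adjusted p = 0.043). These 3 calls were weak. They were lost without single libraries, at most with an adjusted p of 0.21 for Fcgr3 and Cd63 (without G12D T1) and 0.27 for Cd48 (without G12D T3). With the copied cells left in G12D T1 they were lost too (adjusted p = 0.16, 0.17 and 0.16). Those cells match G12D/E2-KO T1 cells, so that loss is partly built in. Of 13 stem and multipotent progenitor genes, Cd27 was the 1 call. Several of these calls rested on single libraries. Without WT T3 the adjusted p was 0.40 for Csf2rb and 0.22 for Cd48, and without G12D T1 it was 0.20 for Anxa1.

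Lists of the cell cycle, the secretory path and interferon held 0 or 1 called gene in each comparison. Of 24 genes of S phase, Tyms alone passed, lower in G12D/E2-KO against WT (-0.71 ± 0.18, adjusted p = 0.032). Without WT T3 its adjusted p was 0.32. Of 24 genes of G2 and mitosis, Pttg1 alone passed, in each mutant against WT. The CDK inhibitor genes (5 tested), the Ras and ERK output genes (13), the monocyte side genes (5), the MHC class I genes (10) and the MHC class II genes (4) gave 0 calls in the 6 comparisons. Each of these lists held calls in some other settings. Of 23 genes for folding in the endoplasmic reticulum, Ddit3 alone passed, lower in G12D/E2-KO against G12D (-0.97 ± 0.26, adjusted p = 0.044, and 0.27 without G12D T1). The 15 interferon response genes gave 0 calls, although their median in G12D against WT was 0.67. Ifitm3 was at 199, 88.2 and 191 CPM in WT, 112, 109 and 107 in E2-KO, 152, 80.5 and 528 in G12D and 365, 96.1 and 48.4 in G12D/E2-KO, so single libraries (G12D T3 and G12D/E2-KO T1) carried the high values. Of 7 genes tested that the study named, and so chose on these samples, Fabp5 and Igfbp7 passed in G12D/E2-KO against G12D (0.76 ± 0.20, adjusted p = 0.047 and 2.49 ± 0.55, adjusted p = 0.012), and without G12D T1 their adjusted p was 0.31 and 0.099. Among markers of other cell types, Car2 fell in G12D/E2-KO against WT and Vpreb1 in G12D/E2-KO against E2-KO, out of 10 erythroid and 6 B lymphoid genes tested. The medians of these lists were -1.35 for the erythroid genes in G12D/E2-KO against WT and -2.43 for the B lymphoid genes in G12D/E2-KO against E2-KO. The erythroid sum averaged 3033 CPM in WT progenitors, 2565 with Ezh2 alone deleted, 1107 with NRas G12D alone and 1034 with both, and the part of these cells or their RNA in the results was not tested.

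The change with each mutation was then set against that in late granulocyte side cells of the same libraries. Over 9958 genes, the E2-KO change differed between both cell classes for 305 genes (3.06%), of which 167 were higher in the progenitors (1.68%) and 138 lower (1.39%). The G12D change differed for 5 (0.0502%), 3 higher (0.0301%) and 2 lower (0.0201%). The G12D/E2-KO change differed for 139 (1.4%), 77 higher (0.773%) and 62 lower (0.623%). Single libraries moved these counts, to 60 without E2-KO T1 and 541 without G12D/E2-KO T3 for the first, to 2 without G12D T1 and 12 without G12D/E2-KO T3 for the second and to 34 without WT T3 and 432 without G12D/E2-KO T1 for the third. Late granulocyte side cells held more Elane, a gene of the earlier stage, in E2-KO than in WT, at 5142 ± 2416 CPM in E2-KO and 2047 ± 609 CPM in WT. This shift moves with the E2-KO comparison of both classes, and its part in the result was not tested. In late granulocyte side cells Bex4 was at 6.65 ± 0.980 CPM in E2-KO and 4.12 ± 2.55 CPM in WT (difference of the log2 changes 3.40 ± 0.52, adjusted p = 5.2e-05). Its level in erythroid cells was 46.2 to 157 CPM over the libraries, above that of late granulocyte side cells. The Mt2 change was also larger in the progenitors. In late granulocyte side cells Mt2 was at 31.7 ± 5.18 CPM in E2-KO and 19.7 ± 10.7 CPM in WT (difference 2.02 ± 0.32, adjusted p = 0.00077). The Bex4 and Mt2 differences passed in G12D/E2-KO too, at 3.76 ± 0.52, adjusted p = 1.1e-05 and 2.00 ± 0.33, adjusted p = 0.0014.

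For Dsp no difference between both classes passed. It was at 25.7 ± 1.46 CPM in E2-KO and 0.788 ± 0.585 CPM in WT late granulocyte side cells, and the difference of the log2 changes was 1.01 ± 0.85, adjusted p = 0.63. Id1, Ncam1 and Lmo1 were already high in WT late granulocyte side cells, at 80.2 ± 5.50, 66.2 ± 6.53 and 72.2 ± 30.1 CPM, and their E2-KO changes were larger in the progenitors (differences 1.44 ± 0.21, 1.13 ± 0.17 and 1.07 ± 0.24). Pttg1 went the other way. In late granulocyte side cells its WT mean was 14.6 ± 1.90 CPM and the means of E2-KO, G12D and the double mutant were 213 ± 43.1, 164 ± 47.5 and 207 ± 15.3 CPM, and its change was smaller in the progenitors for all 3 mutants (-1.74 ± 0.18, adjusted p = 8.4e-09, -1.78 ± 0.17, adjusted p = 3.4e-09 and -1.91 ± 0.17, adjusted p = 2.9e-10). The G12D change of Fcnb was larger in the progenitors (0.83 ± 0.15, adjusted p = 0.0084), where WT late granulocyte side cells held 753 ± 144 CPM. That call was lost without G12D T1 (adjusted p = 0.76) or WT T3 (0.20).

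**Figure D5:**
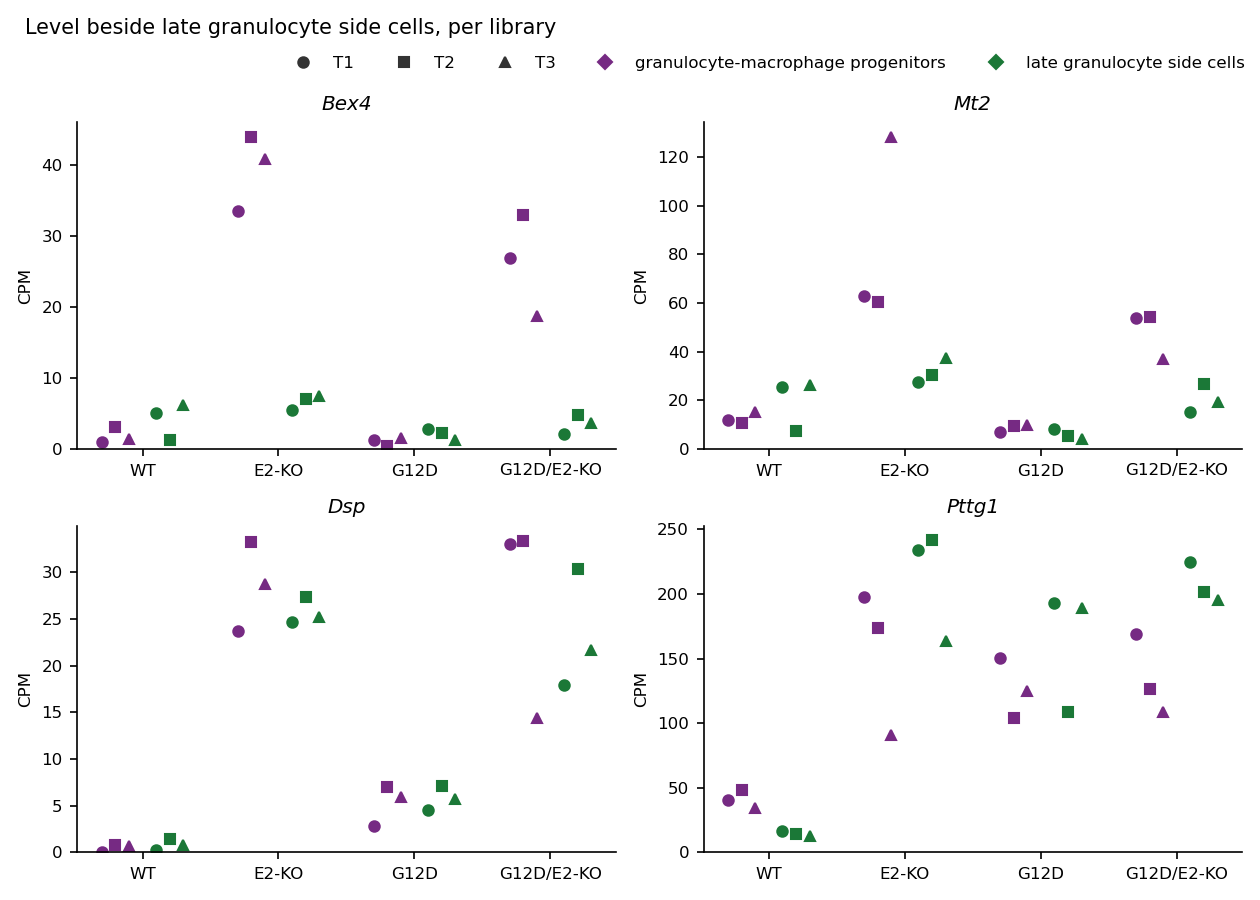
Level in CPM (vertical axes, from 0) of Bex4, Mt2, Dsp and Pttg1 in granulocyte-macrophage progenitors and in late granulocyte side cells by genotype; each point is 1 library and its shape gives the time point. Bex4 and Mt2 are highest in the progenitors of E2-KO and G12D/E2-KO, Dsp is raised in both cell classes there, and Pttg1 in late granulocyte side cells is at 12.8 to 16.6 CPM in WT and at 109 CPM or more in all mutant libraries.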

How the data were processed

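Single-cell libraries were made with a 3′ droplet method from c-Kit+ bone marrow of 4 genotypes at 3 time points. The authors deposited 1 table of UMI counts per library (27998 gene names) and removed doublets with Scrublet and cells rich in mitochondrial UMIs before deposit, so no doublet caller was run. The submitters' processing notes name Cell Ranger and the mm10 build. G12D T1 cells with a cosine above 0.9 to a G12D/E2-KO T1 cell (genes ranked 301 to 8300 by total UMIs) were left out. The members and the gene lists were chosen with earlier results of these data known.

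Deposited counts were summed over the members of each library, and 9292 genes passed edgeR's expression filter. They were fitted with edgeR 4.0.16 (quasi-likelihood, TMM factors from 0.930 to 1.11) in R 4.3.3, with genotype and time point as terms over all 12 libraries and 6 residual degrees of freedom. The common biological coefficient of variation was 0.138. P-values were two-sided, adjusted by Benjamini-Hochberg over all genes of a comparison, with a threshold of 0.05. The interaction is the G12D/E2-KO change minus the sum of both single changes. A part that all mutants share through Mx1-Cre is in each of these changes and so enters the term with the opposite sign. The difference between progenitors and late granulocyte side cells came from a second fit of 9958 genes, which took the library as a block. Values after ± are SE for log2 differences and SD for means. P-values of the first fit rest on the spread left after genotype and the shifts between time points shared by all genotypes are fitted. This spread is pooled over the 4 genotypes. It holds changes of a genotype over time that the others do not share. Progenitors held 834604 to 2828727 UMIs per library, and intervals cover counting error only, at 95% and exact. The scripts were tested on simulated data. The code ran in Python 3.11.15.

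Named genes were the 8 higher and 8 lower with the largest change in each mutant against WT (the 4 and 4 largest in the other comparisons), among those past the threshold, at 20 CPM or more in 1 genotype and changed the same way at each time point, with Xist, Tsix and Y-linked genes left out. From each gene list, up to 4 genes past the threshold were named by smallest p, or else up to 2 by highest mean. Bex1, Bex2, Mt1, Ncam1, Lmo1, Alcam, Cd44, Gpc1, Serpine2, Ldhb, Chchd7 and Yes1 fall outside these rules and were chosen after their values were seen. Replicate numbers mark the shared time point per the labels, and the fit has time as its block. Deviations of same-time libraries from their genotype means had a mean correlation of 0.116 (18 pairs, -0.0903 to 0.341), against -0.058 over 36 pairs of different times. Alternatives were DESeq2 1.42.0, other size factors, no filter, no block, 2 genotypes only, the cells as deposited, other limits of the rule, other thinning and single libraries left out. Leaving out T3, and leaving out members with markers of other cells, were chosen after seeing the data. Gene positions came from the mm10 annotation, matched for 410 of 414 genes.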

Additional observations from a re-analysis of the deposited data

Results flagged for a closer look

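A tested difference between groups marked each of the following values. It was either the interaction term or a change that differed between the progenitors and late granulocyte side cells of the same libraries. All are log2 values from edgeR's quasi-likelihood test with Benjamini-Hochberg adjustment, and their causes were not tested. A positive class difference means that the log2 change from WT was higher in the progenitors, whatever its sign in each class.

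The interaction was 2.37 for Tceanc2 (adjusted p = 0.0037), whose low level in G12D was not seen in G12D/E2-KO. It was -2.24 for Gdpd3 (adjusted p = 0.0037) and -1.91 for Pttg1 (adjusted p = 0.00099), both raised in each mutant. The part of Mx1-Cre in the values of Gdpd3 and Pttg1 cannot be told apart.

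The class difference of the E2-KO change was positive for Bex4 (3.40), Mt2 (2.02), Jchain, an immunoglobulin joining chain gene (1.62), and Tmcc1 (1.58). Jchain was at 5.38 ± 1.73 CPM in WT and 27.3 ± 22.8 CPM in E2-KO progenitors, and at 22.9 ± 28.8 and 26.1 ± 23.2 CPM in late granulocyte side cells. The class difference was negative for Pttg1 (-1.74), 2610318N02Rik (-1.63), Tfpi, the tissue factor pathway inhibitor gene (-1.50), and Gmpr, a GMP reductase gene (-1.48). Tfpi was at 31.0 ± 8.61 and 17.0 ± 3.09 CPM in WT and E2-KO progenitors, and at 3.63 ± 0.499 and 6.48 ± 1.18 CPM in late granulocyte side cells, so its level was lower with Ezh2 deleted in the first class and higher in the second.

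For G12D, the class difference was positive for Pdcd4 (0.95), Fcnb (0.83) and Mrpl52 (0.82) and negative for Pttg1 (-1.78). Pdcd4, a translation inhibitor gene, was at 302 ± 84.0 and 432 ± 122 CPM in WT and G12D progenitors and at 42.3 ± 21.9 and 31.2 ± 11.8 CPM in late granulocyte side cells. For the double mutant, Bex4 (3.76), Lpl (2.11), Mt2 (2.00) and Bmpr1a (1.86) had positive values. Those for Gkap1 (-1.92), Pttg1 (-1.91), Mgl2 (-1.53) and Papss2 (-1.29) were below 0. Mgl2 was at 8.00 ± 2.99 CPM in WT and 7.20 ± 3.08 CPM in G12D/E2-KO late granulocyte side cells.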

How the results depend on the processing

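Over the genes named as past the threshold there were 202 results and 4338 alternative values, of which 3622 kept their call, 716 lost it and 0 changed direction, and 60 results kept it under every alternative. Counts of called genes moved more. DESeq2 called 23 (G12D) and 102 (G12D/E2-KO) genes against WT, 6 for the interaction, 96 in G12D/E2-KO against G12D, 4 against E2-KO, and 147, 2 and 66 for the E2-KO, G12D and G12D/E2-KO differences between cell classes. Without a filter on low counts the calls were 182 (E2-KO), 58 (G12D), 370.0 (G12D/E2-KO), 31 (interaction), 402 (against G12D), 34 (against E2-KO), and 22 and 256 for the G12D and G12D/E2-KO class differences. With a lower limit of 200 they were 50, 25, 70, 5, 79 and 1 in the same order of the 6 comparisons. With an upper limit of 100 they were 121 against G12D and 4 against E2-KO. With the cells as deposited 40 passed against G12D, and a fit of 2 genotypes gave 70 in G12D. Chosen after seeing the data, leaving out T3 gave 28 (G12D), 19 (interaction), 27 (against E2-KO), and 14 and 62 for the G12D and G12D/E2-KO class differences, and leaving out progenitors with markers of other cells gave 56 in E2-KO. The causes were not tested.

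Without the replicate block (time point), the calls against WT were 58 (E2-KO), 7 (G12D) and 96 (G12D/E2-KO), with 1 for the interaction, 103 against G12D and 1 against E2-KO. With single libraries left out, calls ran from 40 to 117 (E2-KO), 8 to 25 (G12D), 64 to 260 (G12D/E2-KO), 2 to 10 (interaction), 64 to 265 (against G12D), 2 to 13 (against E2-KO), and 60 to 541, 2 to 12 and 34 to 432 for the class differences. Unadjusted p-values under 0.05 numbered 1087 (E2-KO), 537 (G12D), 1473 (G12D/E2-KO), 418 (interaction), 1523 (against G12D) and 427 (against E2-KO).

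Differences in shares, none of which passed a test, moved with the limits. With a lower limit of 200 the Ezh2 effect was -1.51 points on the progenitor share and -0.439 on the Cd34 share, and the G12D effects were -0.166 and -0.586. The G12D effect on the Cd34 share was -0.684 with an upper limit of 100 and -3.57 without thinning, and the Ezh2 effect on the Fcnb share was -0.355 when thinned to 1000 UMIs. With single libraries left out these effects ran from -0.110 to 1.74 (Ezh2) and 1.36 to 3.48 (G12D) for progenitors, 1.77 to 3.28 and 0.633 to 2.17 for Cd34, and -0.306 to 2.67 and 3.70 to 7.64 for Fcnb. Genes below a few CPM rest on a handful of UMIs in each library, and for them a difference may not be detectable at this depth.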
